A study of Mus musculus with 3 samples.

Results

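The genes described here are 10 transcription factor genes of jaw and limb patterning, Osr1, Osr2, Dlx5, Dlx6, Msx1, Msx2, Shox2, Barx1, Barx2 and Prrx2, of 32285 genes in the deposited annotation. They were found by symbol, with no measured value in the rule, and each symbol matched 1 gene. They were measured by single-cell RNA sequencing of the mandibular condyle, the jaw side of the temporomandibular joint, in wild-type (WT) C57BL6 mice. The stages were embryonic day 16.5, written E16.5, the day of birth, written P0, and an adult age of 13 weeks, written 13w. Condyles of 7 to 20 mice were pooled at each stage and digested with collagenase and dispase, and live cells were sorted by Calcein uptake and DAPI exclusion. Each pool gave 1 droplet library, so each stage has 1 library, no replicate and no test. The labels give no sex and no number of mice for a single pool.

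The members are DNA-binding proteins that give position and identity to the neural crest mesenchyme from which the jaw skeleton forms. Dlx5 and Dlx6 are neighbouring genes that specify the lower jaw, and in mice that lack both, lower jaw structures take on upper jaw character. Msx1 and Msx2 act downstream of BMP signals in craniofacial mesenchyme and teeth, Barx1 is expressed in the molar field and in stomach mesenchyme, and Barx2 is known from developing muscle and cartilage. Osr1 and Osr2 are zinc finger factors, Osr1 marking fibroblast progenitors of irregular connective tissue and Osr2 being needed for palate growth and for the inner and outer pattern of the tooth row. Shox2 is needed for limb, palate and temporomandibular joint development, and Prrx2 is a mesenchymal homeobox gene that works together with its relative Prrx1 in the mandible.

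After cells with fewer than 500 detected genes or more than 10% mitochondrial counts were left out, 4562 cells of E16.5, 3999 of P0 and 8028 of 13w remained, with medians of 17402, 17954 and 11010 unique molecular identifiers (UMIs) per cell. A UMI counts 1 captured RNA molecule. A level is given in CPM, the gene's summed UMIs per 1000000 summed UMIs of all genes in a group of cells, with its exact 95% Poisson interval in brackets, and every interval here covers counting error only. Cells with at least 3 Col9a1 UMIs per 10000 UMIs, called Col9a1-high, were set against all other cells, since Col9a1 encodes a chain of the cartilage collagen IX. They were 22.2% of E16.5 cells, 43.7% of P0 cells and 20.2% of 13w cells, and they held 38.2%, 66.9% and 36.5% of the UMIs. All 11 chondrocyte markers reached 10 CPM in the E16.5 and P0 libraries, and 10 of 11 did in the 13w library, where Matn1 was at 1.33 CPM. The library pairs shared 10 to 15 cell barcodes out of 4853 to 8899 per library.

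The libraries also differed in other cells. The summed level of 43 blood cell markers was 1402 CPM at E16.5, 224 CPM at P0 and 4464 CPM at 13w, with 1, 5 and 2 of the markers at 0, and the summed level of 9 fibroblast markers was 1024, 804 and 3970 CPM, with none at 0. In clusters of blood cells, those named for a blood cell type and 1 at 13w led by Prtn3, Ctsg, Elane and Mpo, the members should be absent. There Barx1 was at 12.6 CPM at E16.5 (183 cells), 10.6 CPM at P0 (19 cells) and 34.3 CPM at 13w (407 cells). The matching values of Prrx2 were 7.34, 3.54 and 27.8 CPM and those of Shox2 were 4.08, 0 and 17 CPM. The other 7 members lay between 0 and 12.1 CPM there. The median depth of those cells was 7999, 9574 and 7832 UMIs. Whether these UMIs came from free RNA, doublets or cells of mixed clusters was not tested.

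A member counted as measured in a comparison when it reached 5 CPM in at least 1 of the cell groups compared, and as higher or lower when the ratio was at least 2-fold with a counting interval on 1 side of equality. In all cells, 3 of the 6 measured members were lower at P0 than at E16.5, namely Osr1, Dlx6 and Prrx2, and none was higher, while 10.4% of 10074 measured genes were lower and 5.27% were higher. The median log2 ratio of those 6 members was -1.09, against -0.15 over all measured genes. At 13w, 4 of 7 measured members were higher than at P0, namely Osr1, Shox2, Barx2 and Prrx2, and none was lower, with 9.57% of 9963 measured genes higher and 8.55% lower. The median log2 ratio of those 7 members was 1.59, against -0.11 over all measured genes. Both comparisons share the P0 library. A member that passed the minimum in 1 group alone was higher in that group by that choice, though not necessarily by 2-fold. In all cells this held for Osr1 at E16.5 against P0, and for Osr1 and Barx2 at 13w against P0. The direction of these members in the counts was thus set by the minimum. The counts and the medians describe the measured members and not all 10.

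The share of Col9a1-high cells differed between the libraries, so the stages were also compared within each cell group. Among Col9a1-high cells, 1 of 5 measured members, Prrx2, was lower at P0 than at E16.5 and none was higher, where 6.01% of genes were lower and 5.28% higher. In these cells 4 of 6 measured members were higher at 13w than at P0 (Dlx6, Shox2, Barx2 and Prrx2) and none was lower, where 7.68% of genes were higher and 12.5% lower. Among the other cells, Osr1, Dlx6 and Prrx2, 3 of 6 measured members, were lower at P0 than at E16.5, where 8.3% of genes were lower, and no member was among the 5.67% that were higher. In the same cells 3 of 8 measured members were higher at 13w than at P0 (Msx1, Barx2 and Prrx2), where 10.8% of genes were higher, and no member was among the 8.88% that were lower. Barx2 in both cell groups, and Msx1 in the other cells, passed the minimum at 13w and not at P0, so their direction was set by that choice. With cells that carried at least 3 markers of blood, vessel, muscle or another non-skeletal class removed, the same members were higher or lower in every comparison of stages and cell groups. The part of the fibroblast markers in these differences was not tested.

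**Figure D1:**
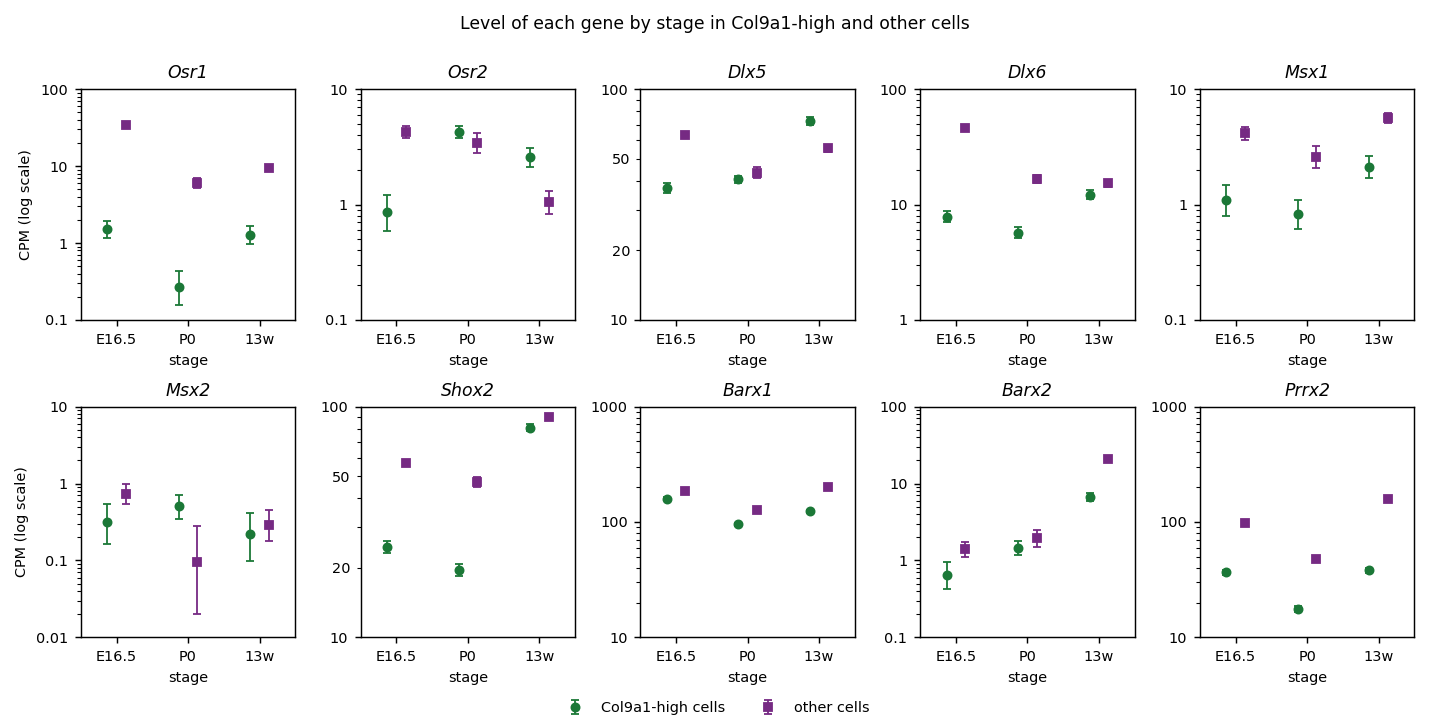
Level of each of the 10 genes (CPM, log axis) at E16.5, P0 and 13w in Col9a1-high cells (circles) and other cells (squares), 1 library per stage, with bars for the exact 95% Poisson interval of the count. Osr1, Dlx6, Msx1, Shox2, Barx1, Barx2 and Prrx2 lie lower in Col9a1-high than in other cells at all 3 stages. The intervals of the cell groups overlap for Barx2 at P0. Barx2 is at its highest at 13w in both cell groups.

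No measured member was at least 2-fold higher in Col9a1-high cells than in other cells of the same library at any stage. At E16.5, 4 of 6 measured members were lower in Col9a1-high cells (Osr1, Dlx6, Shox2 and Prrx2), where 17.9% of genes were lower and 8.7% higher. At P0 the same 4 members were lower, of 6 measured, where 16.4% of genes were lower and 9.9% higher. At 13w, 4 of 8 measured members were lower (Osr1, Msx1, Barx2 and Prrx2), where 13.3% of genes were lower and 3.5% higher. Osr1 and Prrx2 were thus lower at each stage, while Dlx6 and Shox2 were at least 2-fold lower at E16.5 and P0 and not at 13w. Osr1 at each stage, and Msx1 at 13w, passed the minimum in the other cells alone, so their direction was set by that choice. The median log2 ratio of Col9a1-high over other cells was -1.32 in E16.5 cells, -1.35 in P0 cells and -1.04 in 13w cells, over the measured members, against -0.22, -0.14 and -0.33 over all measured genes.

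Cells were also clustered within each library without using the members, which gave 19 clusters of E16.5 cells, 15 of P0 cells and 17 of 13w cells, of which 13, 9 and 8 could be named from marker genes. The names were set after the clusters were seen, the remaining clusters are given by their leading genes, and clusters of different libraries were not matched. Levels by cluster describe each library and were not tested.

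**Figure D2:**
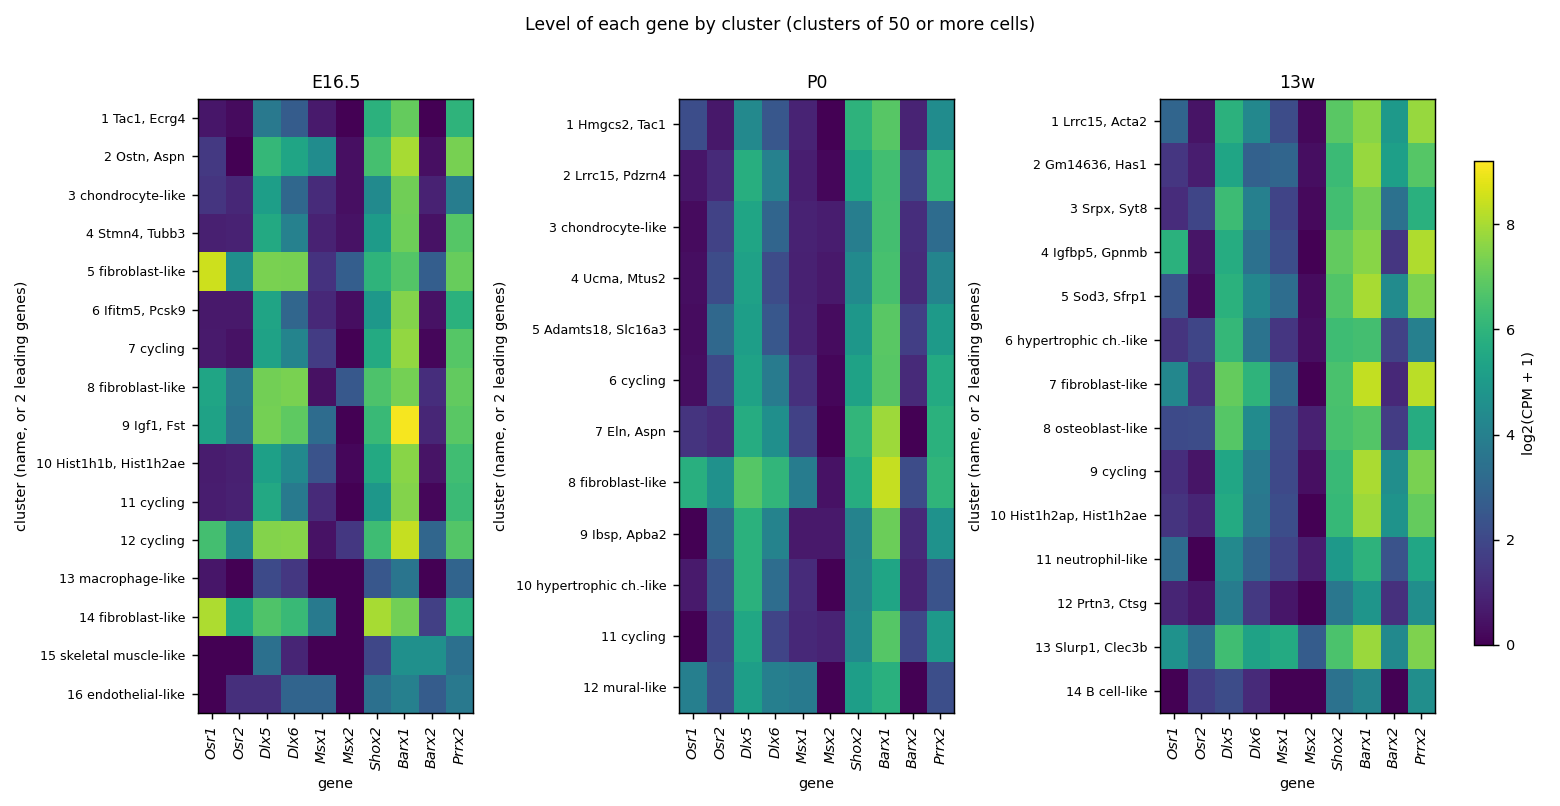
Level of each gene, as log2(CPM + 1) on a colour scale, in every cluster of at least 50 cells at E16.5 (16 clusters), P0 (12) and 13w (14). Osr1 is bright in a few fibroblast-like and related rows, Dlx5 and Barx1 are spread over most rows of skeletal tissue, and Barx2 rises above the low colours in few rows before 13w.

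Osr1, at each stage, was the member with the highest share of its counts in 1 cluster. Its level was 21.7 [20.8 to 22.6] CPM at E16.5, 2.17 [1.88 to 2.49] CPM at P0 and 6.54 [6.08 to 7.03] CPM at 13w. Osr1 was thus 10.0-fold lower at P0 than at E16.5 (log2 ratio -3.32), and 3.01-fold higher at 13w than at P0, and the 3 intervals do not overlap. With Col9a1-high and other cells given equal weight, the log2 ratio of P0 over E16.5 was -2.51 and that of 13w over P0 was 0.79, under 2-fold.

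In Col9a1-high cells Osr1 stood at 1.51, 0.270 and 1.28 CPM at E16.5, P0 and 13w, against 34.2, 6.02 and 9.56 CPM in other cells. It was therefore 22.6-fold, 22.3-fold and 7.45-fold lower in Col9a1-high cells, and the P0 value in Col9a1-high cells rests on 17 UMIs. With the cells of highest doublet score removed the log2 ratio at E16.5 was -6.02, against -4.50 with all cells, and at 13w it was -3.60, against -2.90 with all cells.

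At E16.5, 63.5% of all Osr1 counts came from 1 fibroblast-like cluster of 350 cells led by Nefl, Nefm, Igfbp2 and Col14a1, where the level was 358 CPM [339 to 377] and 70.3% of cells held an Osr1 UMI. A second fibroblast-like cluster of 78 cells, led by Aldh1a2 and Dlk1, had 269 CPM, and the median over the 16 clusters of at least 50 cells was 0.695 CPM. At P0, 70.6% of the counts came from a fibroblast-like cluster of 252 cells led by Sfrp2, Fst and Thbs4, at 54.9 CPM. At 13w an unnamed cluster of 1020 cells led by Igfbp5, Gpnmb, Nbl1 and Apod held 52.6% of the counts at 57.3 CPM. In that cluster 5 of 9 fibroblast markers were at least 2-fold above the rest of the library (median log2 ratio 1.36), though none was among its leading genes. At each stage, then, most Osr1 RNA lay in 1 cluster with few Col9a1-high cells, 2.57%, 3.57% and 2.25% of its cells.

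Osr2 was sparse and did not reach 5 CPM in any cell group. Its level was 2.94 [2.62 to 3.30] CPM at E16.5, 3.99 [3.60 to 4.41] CPM at P0 and 1.60 [1.38 to 1.85] CPM at 13w. In Col9a1-high cells it stood at 0.859 CPM at E16.5, 4.28 CPM at P0 and 2.57 CPM at 13w, and in other cells at 4.23, 3.41 and 1.04 CPM. The order of the cell groups thus differed between stages: Osr2 was 4.93-fold lower in Col9a1-high cells at E16.5, and 2.46-fold higher in them at 13w, while at P0 the intervals of the cell groups overlapped.

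By cluster, Osr2 peaked at 43.3 CPM at E16.5 in the Aldh1a2 and Dlk1 cluster that also held Osr1. At P0 it was 24 CPM in the fibroblast-like cluster and between 2.48 and 7.64 CPM in the clusters of which over 86% of cells were Col9a1-high. At 13w its highest level was 8.87 CPM [4.25 to 16.3], in a cluster of 114 cells led by Slurp1, Clec3b, Prg4 and Myoc. Prg4 is the lubricin gene and a marker of superficial cartilage. In that cluster 6 of 7 superficial or fibrocartilage markers were at least 2-fold above the rest of the library (median log2 ratio 3.94). For fibroblast markers this was 5 of 9 (2.22), but more of the leading genes were fibroblast markers, so the cluster was left unnamed. After every cell was thinned to 3000 UMIs, 29.4% of cells with an Osr2 UMI also held an Osr1 UMI at E16.5 (20 of 68 cells), against 6.08% of cells without one. At P0 the shares were 8% (4 of 50 cells) against 1.10%, and at 13w 0 of 34 cells with Osr2 held Osr1, and a limit of 3 counts allows a share of up to 8.82%.

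Dlx5 stayed within 2-fold between neighbouring stages in all cells. Its level was 53.3 [51.9 to 54.8] CPM at E16.5, 41.5 [40.2 to 42.9] CPM at P0 and 61.7 [60.3 to 63.2] CPM at 13w, and the 3 intervals do not overlap. In Col9a1-high cells its level was 37.2, 40.6 and 72.8 CPM at E16.5, P0 and 13w, against 63.3, 43.4 and 55.3 CPM in other cells. The log2 ratio of Col9a1-high over other cells was -0.77 in E16.5 cells, -0.10 in P0 cells and 0.40 in 13w cells, and the P0 value turned to 0.18 under trimmed mean of M-values (TMM) scaling. Among Col9a1-high cells the log2 ratio of Dlx5 at 13w over P0 was 0.84 as measured and 1.11, past 2-fold, with TMM.

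Dlx6, whose gene lies next to Dlx5, followed a different course. Its level was 31.7 [30.6 to 32.8] CPM at E16.5, 9.33 [8.72 to 9.97] CPM at P0 and 14.1 [13.4 to 14.8] CPM at 13w, which is 3.40-fold lower at P0 than at E16.5 and 1.51-fold higher at 13w than at P0. In Col9a1-high cells Dlx6 was at 7.86, 5.72 and 12.2 CPM at E16.5, P0 and 13w, against 46.4, 16.6 and 15.2 CPM in other cells. The gap between the cell groups was 5.90-fold at E16.5, 2.91-fold at P0 and 1.25-fold at 13w, where the direction turned under TMM scaling (log2 ratio -0.32 as measured and 0.05 with TMM). Among Col9a1-high cells Dlx6 was 2.13-fold higher at 13w than at P0 (log2 ratio 1.09), and the ratio was under 2-fold in cells thinned to 3000 UMIs (0.80), with the mean of per-cell CPM (0.78) and with a Col9a1 minimum of 1 per 10000 (0.88).

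Dlx5 and Dlx6 were highest in the same cluster in each library. At E16.5 this was a cycling cluster of 163 cells led by Thbs4, with 181 CPM of Dlx5 and 183 CPM of Dlx6. In that cluster 5 of 9 fibroblast markers were also at least 2-fold above the rest of the library. At P0 both genes were highest in the fibroblast-like cluster, with 109 CPM of Dlx5 and 65.5 CPM of Dlx6. At 13w they were highest in a fibroblast-like cluster of 383 cells led by Sfrp2 and Mfap4, with 129 and 62.4 CPM. Dlx5, which is known to promote osteoblast differentiation, was also at 107 CPM in the osteoblast-like cluster at 13w, where Dlx6 was at 20.7 CPM. In thinned cells 35.0% of cells with a Dlx6 UMI held Dlx5 at E16.5, against 15.5% of cells without one. The shares were 17.7% against 12.2% at P0 and 24.4% against 15.4% at 13w. Over the 42 clusters of at least 50 cells, with each library's mean taken off, the Pearson correlation of Dlx5 with Dlx6 was 0.87. This is a description over clusters that share 3 libraries and include blood, vessel and muscle clusters.

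The antisense gene Dlx6os1 overlaps Dlx6, and the strand used in counting is not stated in the sources used here, so the reads of the pair may not be fully separated. Dlx6os1 was at 5.96 CPM at E16.5, 1.63 CPM at P0 and 4.76 CPM at 13w. It had the pattern over clusters most like that of Dlx6 among 9797 genes compared (Pearson correlation 0.93). In the RefSeq annotation of an earlier mouse build, Msx1, Msx2, Shox2 and Barx2 also each overlap another gene, which for Shox2 is Rsrc1.

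Msx1 was close to the minimum. Its level was 2.97 [2.65 to 3.33] CPM at E16.5, 1.41 [1.18 to 1.68] CPM at P0 and 4.34 [3.96 to 4.74] CPM at 13w. In Col9a1-high cells it was at 1.09, 0.826 and 2.13 CPM at E16.5, P0 and 13w, against 4.14, 2.61 and 5.61 CPM in other cells, and these intervals do not overlap at any stage. Among other cells Msx1 was 2.15-fold higher at 13w than at P0, with a log2 ratio of 1.11, which was 0.90 with a Col9a1 minimum of 1 per 10000.

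The cluster with the highest Msx1 level differed between stages. At E16.5, 44.8% of Msx1 counts came from a cluster of 472 cells led by Ostn, Aspn, Ptgfr and Thy1, at 21.0 CPM [17.6 to 24.9]. At P0 the highest level was 13.7 CPM in the fibroblast-like cluster, close to 12.8 CPM in a mural-like cluster of 50 cells. At 13w Msx1 stood at 47.9 CPM [36.0 to 62.5] in the unnamed cluster with Slurp1 and Prg4 among its leading genes, where 29.8% of cells held a UMI, and at most 8.89 CPM in each other cluster of at least 50 cells.

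Msx2 was close to absent. In all it gave 58 UMIs in E16.5 cells, 35 in P0 cells and 30 in 13w cells, or 0.577, 0.372 and 0.265 CPM, and between 0.324% and 1.01% of cells held one. Its highest cluster levels were 5.69 CPM at E16.5, in the Osr1-rich fibroblast-like cluster, and 5.32 CPM at 13w, in the cluster led by Slurp1 and Clec3b. The interval at E16.5 [0.438 to 0.746] lies above that at 13w [0.179 to 0.379]. The P0 interval [0.259 to 0.518] overlaps both, so the counts are too few to rank P0 against the other stages.

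Shox2 was lowest at P0 and highest at 13w. Its level was 44.6 [43.3 to 45.9] CPM at E16.5, 28.8 [27.7 to 29.9] CPM at P0 and 86.6 [84.9 to 88.3] CPM at 13w. In Col9a1-high cells it was at 24.6, 19.6 and 81.0 CPM at E16.5, P0 and 13w, against 57.0, 47.3 and 89.8 CPM in other cells. Among Col9a1-high cells Shox2 was 4.13-fold higher at 13w than at P0 (log2 ratio 2.05), and among other cells 1.90-fold higher (0.93). Under TMM scaling these log2 ratios were 2.32 and 1.06, so the value in other cells was then past 2-fold. The gap between the cell groups was thus 2.31-fold at E16.5, 2.41-fold at P0 and 1.11-fold at 13w. Under TMM scaling the log2 ratio of Col9a1-high over other cells was -0.89 at E16.5, against -1.21 as measured, and at 13w it turned to 0.23, against -0.15 as measured. At P0 it was -1.27 as measured and -0.98 with median-of-ratios factors.

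The share of cells with a Shox2 UMI in thinned cells was 6.96%, 5.51% and 20.7% in Col9a1-high cells at E16.5, P0 and 13w, and 15.6%, 12.3% and 23.2% in other cells. Without thinning it was 49.3%, 40.3% and 73.8% in Col9a1-high cells, and 47.5%, 39.7% and 54.1% in other cells. Thinning left out 23, 75 and 57 Col9a1-high cells and 147, 49 and 264 other cells at E16.5, P0 and 13w. In blood cell clusters, unthinned, 2.19% of cells at E16.5, 0 of 19 cells at P0 (up to 15.8% by the limit of 3 counts) and 11.1% at 13w held a Shox2 UMI, at medians of 7999, 9574 and 7832 UMIs, against 17402, 17954 and 11010 over all cells.

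By cluster, Shox2 was highest at E16.5 at 252 CPM in the Aldh1a2 and Dlk1 fibroblast-like cluster of 78 cells, and the next cluster was at 97.7 CPM. At P0 it ranged from 14.2 CPM in the chondrocyte-like cluster to 66 CPM in a cluster led by Eln and Aspn. At 13w it lay between 70.7 and 127 CPM in 11 of the 14 clusters and at 10.1 to 30.7 CPM in the 3 others, which are blood cell clusters. The adult level was thus spread over the skeletal clusters, the hypertrophic chondrocyte-like cluster at 80.8 CPM included.

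**Figure D3:**
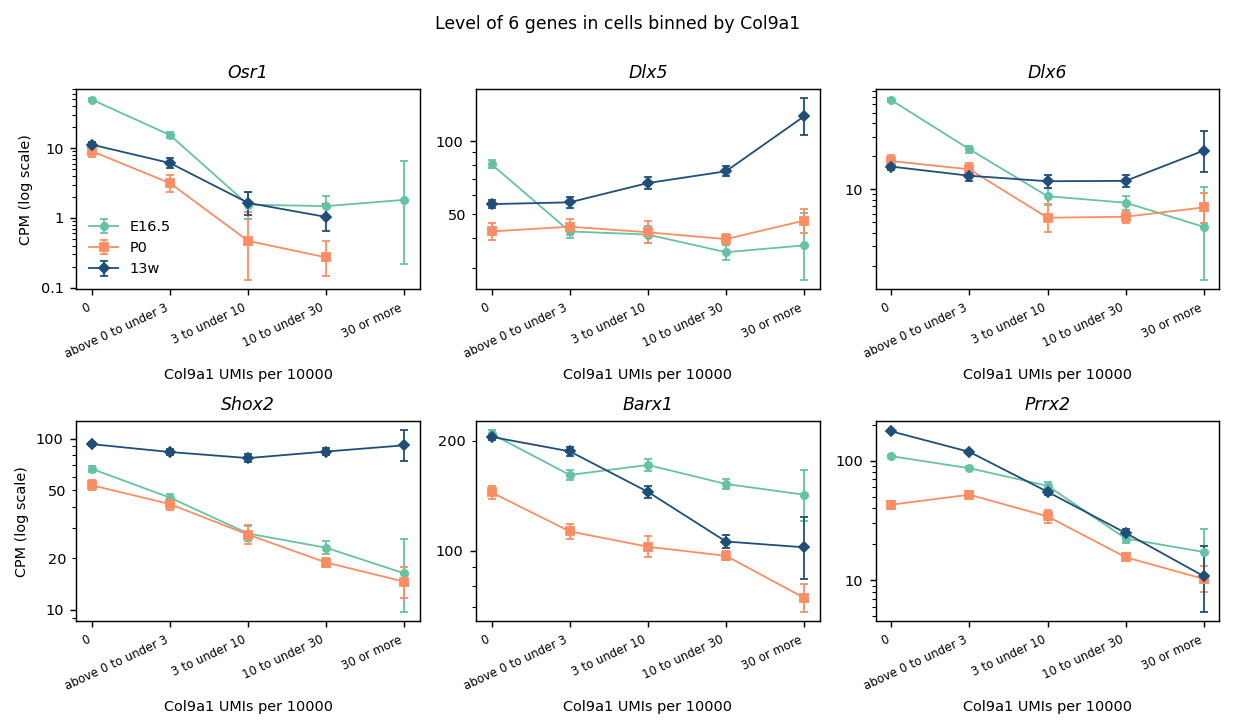
Level (CPM, log axes) of 6 members in cells binned by Col9a1 UMIs per 10000 at E16.5, P0 and 13w, with exact 95% Poisson intervals. Prrx2 was lower in the top 3 bins than in the lowest bin at each stage and Shox2 was flat at 13w; Osr1 values of 0, in the top bin at P0 and 13w, are not drawn.

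Barx1 was present in most cells at every stage. Its level was 177 [174 to 179] CPM at E16.5, 106 [104 to 108] CPM at P0 and 172 [169 to 174] CPM at 13w, so that it was 1.66-fold lower at P0 than at E16.5 and 1.62-fold higher at 13w than at P0. In Col9a1-high cells it was at 159, 95.3 and 124 CPM at E16.5, P0 and 13w, against 187, 128 and 199 CPM in other cells. The log2 ratio of Col9a1-high over other cells was -0.24 in E16.5 cells, -0.43 in P0 cells and -0.69 in 13w cells, and the E16.5 value turned to 0.08 under TMM scaling. In thinned cells a Barx1 UMI was held by 38.4% of E16.5 cells, 28.9% of P0 cells and 40.5% of 13w cells. Without thinning the shares were 75.8%, 75.6% and 77.0%, against 8.74%, 5.26% and 15% in the shallower blood cell clusters.

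Barx1 reached 542 CPM [517 to 569] at E16.5 in a cluster of 300 cells led by Igf1, Fst, Ogn and Meox2 that also expressed Pthlh, the gene of a secreted regulator of chondrocyte maturation. The highest levels were 336 CPM at P0 and 330 CPM at 13w, each in a fibroblast-like cluster. Among clusters of skeletal tissue the lowest level was in the hypertrophic chondrocyte-like cluster, at 41.1 CPM at P0 and 87.0 CPM at 13w. In cells binned by Col9a1, Barx1 at 13w was at 205, 187, 145, 106 and 102 CPM in order of increasing Col9a1, and the top bin held 39 cells.

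Barx2 was scarce at E16.5 and P0. Its level was 1.11 [0.917 to 1.34] CPM at E16.5, 1.63 [1.38 to 1.91] CPM at P0 and 15.5 [14.8 to 16.3] CPM at 13w, which is 9.54-fold higher at 13w than at P0 (log2 ratio 3.25). It was at 0.651, 1.46 and 6.74 CPM in Col9a1-high cells at E16.5, P0 and 13w, and at 1.40, 1.96 and 20.6 CPM in other cells. It was higher at 13w than at P0 by 4.61-fold in Col9a1-high cells and by 10.5-fold in other cells. In Col9a1-high cells the log2 ratio of 2.20 was 2.90 after thinning and 1.40 with a Col9a1 minimum of 10 per 10000, and in other cells 3.39 was 4.16 with a minimum of 1 per 10000.

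At E16.5 the highest Barx2 level was in a skeletal muscle-like cluster of 65 cells, at 23.8 CPM [15.4 to 35.1], which held 22.3% of the library's 112 UMIs. The 7 skeletal muscle markers summed to 14.9 CPM at E16.5, 6.04 CPM at P0 and 1.48 CPM at 13w, and their part in the Barx2 levels was not tested. At 13w Barx2 was at 35.1 CPM [32.2 to 38.3] in a cluster of 1107 cells led by Has1, Cxcl1, Slc20a1 and Dusp6, which held 30.4% of its counts, and at 30.03 CPM in a cluster of 1400 cells led by Lrrc15 and Acta2. It was at 2.49 CPM in the hypertrophic chondrocyte-like cluster, 2.13 CPM in the osteoblast-like cluster and 1.77 CPM in the Osr1-rich cluster of 1020 cells. The adult Barx2 signal was thus uneven over the condylar clusters, and its correlation over 42 clusters with the other members was between 0.07 and 0.20.

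Prrx2 was lower in Col9a1-high cells and lowest at P0 in both cell groups. Its level was 75.0 [73.3 to 76.7] CPM at E16.5, 27.4 [26.4 to 28.5] CPM at P0 and 114 [112 to 116] CPM at 13w. It was 2.73-fold lower at P0 than at E16.5 (log2 ratio -1.45) and 4.14-fold higher at 13w than at P0 (2.05). In Col9a1-high cells it stood at 36.7, 17.5 and 38.2 CPM at E16.5, P0 and 13w, against 98.7, 47.5 and 157 CPM in other cells, a gap of 2.69-fold, 2.70-fold and 4.11-fold.

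Of the members measured in both cell groups, Prrx2 was the one at least 2-fold lower at P0 than at E16.5 in each group taken alone, by 2.09-fold in Col9a1-high cells and by 2.08-fold in other cells. Both values lie near the 2-fold limit: in Col9a1-high cells the log2 ratio of -1.06 was -0.56 with a Col9a1 minimum of 10 per 10000, and in other cells -1.06 was -0.91 under TMM scaling. Prrx2 was higher at 13w than at P0 by 2.18-fold in Col9a1-high cells (log2 ratio 1.12) and by 3.31-fold in other cells. The value in Col9a1-high cells was under 2-fold with a Col9a1 minimum of 10 per 10000 (0.70) and with the cells of highest doublet score removed (0.84). In blood cell clusters, where it should be absent, Prrx2 was at 3.54 CPM at P0 (1 UMI in 19 cells) and 27.8 CPM at 13w. The part of such UMIs in the Col9a1-high level of 13w was not tested.

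With cells placed in order of increasing Col9a1, Prrx2 was at 109, 86.3, 61.6, 22.3 and 17.2 CPM at E16.5 and at 176, 118, 54.8, 24.8 and 10.8 CPM at 13w. At P0 it was at 42.8, 51.9, 34.1, 15.6 and 10.2 CPM. The level was lower in each step up at E16.5 and 13w, and at P0 from the second bin on. By cluster the lowest skeletal levels were 14.1 CPM in the chondrocyte-like cluster at E16.5, and 4.11 CPM at P0 and 15.2 CPM at 13w in the hypertrophic chondrocyte-like clusters. That E16.5 cluster was led by Col10a1, and 7 of 8 hypertrophic chondrocyte markers were also at least 2-fold above the rest of its library. The names thus do not mark a change of cell type between stages. The 13w values of 24.8, 10.8 and 15.2 CPM lie under the 27.8 CPM of Prrx2 in the blood cell clusters of that library. The highest were 156 CPM at E16.5 in the Ostn and Aspn cluster that also had the highest Msx1 level, 67.2 CPM at P0 in a cluster led by Lrrc15 and Pdzrn4, and 301 CPM at 13w in the fibroblast-like cluster.

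**Figure D4:**
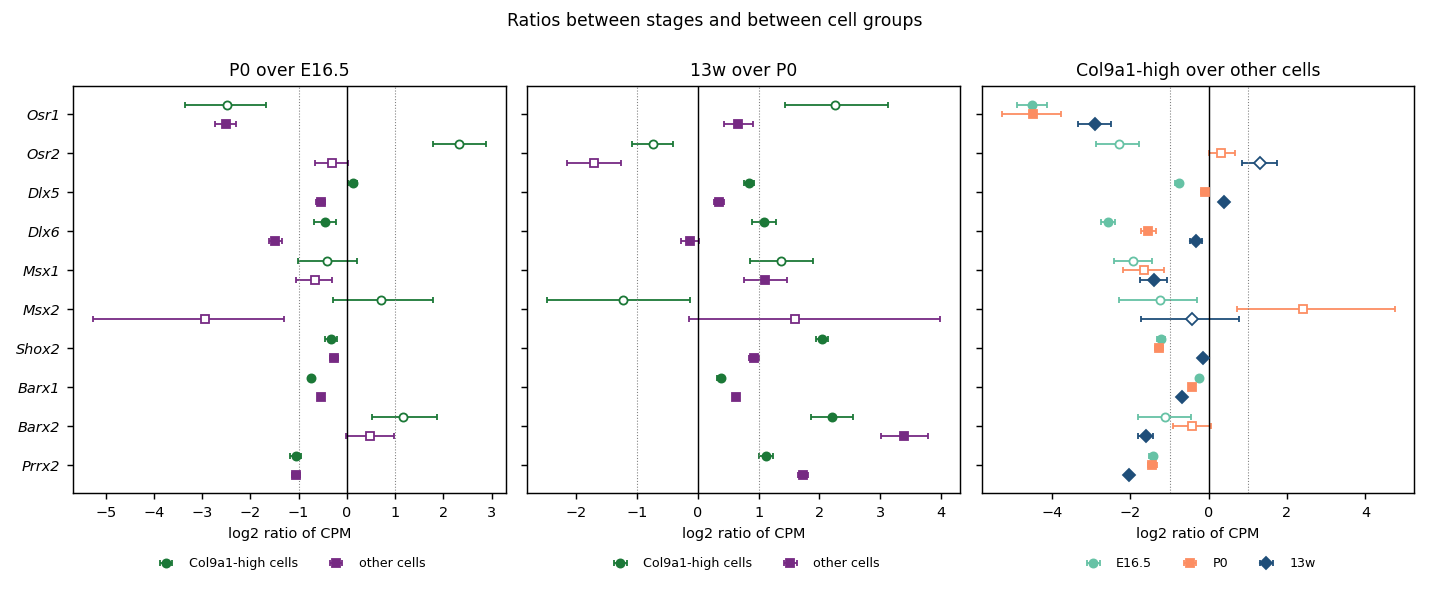
Log2 ratio of CPM for each member, P0 over E16.5 and 13w over P0 within Col9a1-high (circles) and other cells (squares), and Col9a1-high over other cells at E16.5, P0 and 13w, with exact 95% counting intervals. Open symbols mark members under 5 CPM in both groups, dotted lines mark a 2-fold ratio, and Prrx2 lies left of the dotted line at all 3 stages in the last panel.

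The RefSeq promoter table held 5 of the 10 members, Msx1, Msx2, Shox2, Barx1 and Prrx2. Shox2, Barx1 and Prrx2 are printed because each passed the minimum at every stage and was lowest at P0 in all cells, and Msx2 as the scarce member whose promoter holds the core sequence bound by many homeodomain proteins. Each line gives the 250 bases before the transcription start, read 5′ to 3′ on the strand of the gene, from RefSeq on build GRCm38.p6, while the counts were made on GRCm39. Capitals mark TAATTA, the homeodomain core, GGGCGG or CCGCCC, the 2 strands of the GC box, and TATAAA, the TATA box, or its complement TTTATA. Matches were sought on both strands and may overlap.
Shox2, chr3:66981772-66982021, minus strand: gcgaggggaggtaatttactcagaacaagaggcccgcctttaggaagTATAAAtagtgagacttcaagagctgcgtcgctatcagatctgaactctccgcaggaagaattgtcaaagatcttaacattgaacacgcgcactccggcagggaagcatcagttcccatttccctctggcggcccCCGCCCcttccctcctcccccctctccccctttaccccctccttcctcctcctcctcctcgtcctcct
Barx1, chr13:48662786-48663035, plus strand: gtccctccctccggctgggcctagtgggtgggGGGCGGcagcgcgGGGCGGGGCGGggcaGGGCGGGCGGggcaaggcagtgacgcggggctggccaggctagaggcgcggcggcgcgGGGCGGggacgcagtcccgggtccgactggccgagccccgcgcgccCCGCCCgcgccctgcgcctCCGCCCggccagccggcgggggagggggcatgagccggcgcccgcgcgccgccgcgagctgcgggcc
Prrx2, chr2:30845117-30845366, plus strand: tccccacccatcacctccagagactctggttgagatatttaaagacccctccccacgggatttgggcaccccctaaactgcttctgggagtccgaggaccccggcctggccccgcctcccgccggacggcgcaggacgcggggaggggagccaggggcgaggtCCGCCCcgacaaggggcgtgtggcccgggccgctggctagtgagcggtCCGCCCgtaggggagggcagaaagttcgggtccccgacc
Msx2, chr13:53472781-53473030, minus strand: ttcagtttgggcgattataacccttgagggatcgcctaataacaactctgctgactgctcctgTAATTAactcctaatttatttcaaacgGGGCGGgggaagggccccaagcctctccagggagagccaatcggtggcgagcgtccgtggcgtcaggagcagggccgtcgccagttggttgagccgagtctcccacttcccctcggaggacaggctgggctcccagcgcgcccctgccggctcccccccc

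TAATTA occurs in 4.84% of 32851 RefSeq mouse promoter windows of this length, GGGCGG in 32.7% and TATAAA in 12.4%. The Msx2 window holds 1 TAATTA and 1 GC box, and the Shox2 window holds 1 TATAAA and 1 GC box. The Barx1 window, with 85.6% G and C, holds 8 GC boxes counted with overlap, and the Prrx2 window, with 70.0%, holds 2. The Msx1 window, not printed, also holds 1 GC box. A match is a string of letters and was not tied to binding by any value here.

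Across clusters the members did not all move together. Over the 42 clusters of at least 50 cells, with the mean of each library taken off, the Pearson correlation of log2(CPM + 5) was 0.83 for Osr1 with Osr2, 0.81 for Barx1 with Prrx2, 0.77 for Barx1 with Dlx5 and with Shox2, and 0.77 for Dlx6 with Osr1. It was 0.38 for Osr1 with Prrx2 and 0.20 for Osr2 with Prrx2. A correlation over clusters does not say that the same cells held both RNAs. In thinned cells at E16.5, P0 and 13w, 42.0%, 32.4% and 39.5% of cells with a Dlx5 UMI held Barx1. In cells without Dlx5 the shares were 37.6%, 28.4% and 40.6%. Osr1 was held by 16.5%, 1.42% and 3.35% of cells with a Dlx6 UMI, against 5.05%, 1.18% and 2.51% of cells without one. These are descriptions over clusters that share libraries, and the lowest members contribute values near the added 5 CPM.

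The genes whose level over clusters was most like a member's, with the library mean taken off, differed from member to member. The members, the cell type marker genes, mitochondrial, ribosomal protein and predicted genes, and genes low in every cluster were left out of this ranking. The blood, vessel and muscle clusters were kept in it, and their part in the likeness was not tested. For both Osr1 and Osr2 they included Arhgap20 and Adamts15 (0.90 for Osr1 with each, and 0.89 and 0.88 for Osr2), and for Osr1 also Meis2 (0.90), a homeobox cofactor gene. For Dlx5 they were Col5a2 (0.87), a chain of the fibrillar collagen V, and Reck (0.86), and for Dlx6, after Dlx6os1, they were Cpne5 and Thbs2 (0.87 each). For Shox2 they were Runx1t1 (0.91), Bgn and Thbs3 (0.89 each), and Bgn encodes the matrix proteoglycan biglycan. For Barx1 they were P3h3 (0.88), which codes for a collagen prolyl hydroxylase family member, and Ddr2 (0.87), a collagen receptor, and for Prrx2 Dnm1, Sgcd and Ptgfrn (0.89 each). Barx2 had no close match, with Dag1 at 0.72, and Msx1 was nearest to the homeobox gene Meox2 at 0.79. The ranking depended on the scale. Without the library mean taken off, none of the genes named here for Shox2, Prrx2 and Barx2 stayed among the closest. Col3a1 (0.86), Nipa1 (0.85) and Bend6 (0.77) then ranked first for them, and Prss23 (0.73) for Msx1.

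A list of 55 other transcription factor genes of the jaw and its skeleton served as a wider view. In all cells 2 of 36 measured genes of the list were higher at P0 than at E16.5 (Foxc1 and Irx5) and 8 were lower, among them Meis2, with 1.80 CPM in P0 cells and 9.85 CPM in E16.5 cells, and Ebf1, with 21.0 CPM in P0 cells and 62.1 CPM in E16.5 cells. Over all measured genes 5.27% were higher and 10.4% lower. The median log2 ratio of P0 over E16.5 for the measured genes of the list was -0.28, closer to that of all genes than the members' median was.

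Between the cell groups, 4 of 36 measured genes of the list were higher and 23 lower in Col9a1-high than in other cells at E16.5, 5 and 18 of 31 at P0, and 2 and 10 of 32 at 13w. Over all measured genes 8.7% were higher and 17.9% lower at E16.5, 9.9% and 16.4% at P0, and 3.5% and 13.3% at 13w. Irx5 was higher in Col9a1-high cells at all 3 stages, at 164, 258 and 288 CPM at E16.5, P0 and 13w against 23.0, 27.7 and 52.3 CPM in other cells. Prrx1, the relative of Prrx2, was lower in them at each stage, at 250, 166 and 68.4 CPM against 523, 439 and 251 CPM in other cells. Hox genes, which pattern the body behind the jaw and are not expressed in jaw neural crest, were close to absent: none of 39 reached 1 CPM in any library, and their summed level was 0.467, 0.660 and 1.30 CPM at E16.5, P0 and 13w.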

How the data were processed

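Per the file headers, the authors made the deposited UMI counts with Cell Ranger 6.1.2, and the submitters' processing notes name build GRCm39. The counts are raw whole numbers per gene and cell barcode, with no normalization, from the 10x Genomics 3′ kit named in the labels. The deposited barcodes numbered 5458 (E16.5), 4853 (P0) and 8899 (13w), with 103827875, 98486931 and 115836876 counts in total.

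The members and the gene lists were chosen with earlier results of these data known. Cells with fewer than 500 genes or over 10% mitochondrial counts were left out, and the counts were summed over cells by stage and Col9a1 group. With 1 library per stage there is no test. Ratios carry exact conditional binomial intervals, sums exact Poisson intervals and shares exact Clopper-Pearson intervals, all at 95% and for counting error only. A share of 0 carries a limit of 3 counts over the cells instead. Stages with no replicate leave differences between animals, pools and libraries unmeasured. The recomputation was tested on simulated data.

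Clusters came from scanpy 1.11.5 with leidenalg 0.10.2 (2000 variable genes without members and listed genes, 30 components, 20 neighbours, resolution 0.8). Named genes were the members, listed genes past 2-fold, and up to 3 genes most like each member. A doublet caller's automatic threshold marked 0.132%, 0% and 0.0249% of cells, too few to use, so no doublets were removed, and an alternative removed the 192, 136 and 571 highest scores. Other alternatives used TMM factors from edgeR 4.0.16, median-of-ratios factors, other cell filters, thinning to 3000 UMIs, other minimums and other ratios. Shares of thinned cells leave out cells under 3000 UMIs. For the wider list of jaw transcription factors, the comparison of 13w with P0 is not reported here.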

Additional observations from a re-analysis of the deposited data

Results flagged for a closer look

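Osr2 and Msx2, both under 5 CPM in every cell group, were singled out because Col9a1-high cells differed from other cells in opposite directions at different stages. The Osr2 log2 ratio of Col9a1-high over other cells was 1.30 at 13w (106 UMIs in Col9a1-high and 75 in other cells) and -2.30 at E16.5 (33 and 263 UMIs). The Msx2 log2 ratio was 2.40 at P0 (32 UMIs in Col9a1-high and 3 in other cells, with a counting interval of 0.72 to 4.75) and -1.25 at E16.5 (12 and 46 UMIs). The difference between stages was not tested for either gene, since each stage has 1 library.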

How the results depend on the processing

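No paired analysis was possible because each stage has 1 library and the results come from no test. Of 248 recomputed counts of members, 228 stayed within 1.5 times the reported count. The 248 include directions in which no member was called to begin with, such as higher at P0 than at E16.5. There, again finding none was taken as staying, which was likely from the start. Of 413 recomputed log2 ratios of called members, 109 lay outside the counting interval of the reported ratio and none changed sign. The 413 include the settings with other minimums or ratio limits, which change the calls and leave the log2 ratio as reported. Only members already past 2-fold entered, so a change of sign was unlikely from the start. With a minimum of 10 CPM, 2 members in place of 4 were lower in Col9a1-high cells at 13w. With a minimum of 4 counts in place of 5 CPM, 2 members were higher and 2 lower at P0 than at E16.5 in Col9a1-high cells, and 8 were lower in Col9a1-high cells at E16.5. The same minimum added 1 member lower at 13w than at P0 in all cells, in Col9a1-high cells and in other cells, and 1 higher in Col9a1-high than in other cells at P0 and at 13w. At a ratio of 1.5, 5 members were lower at P0 than at E16.5 in all cells and 2 in Col9a1-high cells, and 6 were higher at 13w than at P0 in other cells. At a ratio of 3, the lower members at P0 against E16.5 numbered 0 in Col9a1-high cells and 1 in other cells, the higher members at 13w against P0 numbered 2 in Col9a1-high cells, and the lower members in Col9a1-high cells numbered 2 at E16.5 and 1 at P0. With the mean of per-cell CPM, 5 members were lower at P0 than at E16.5 in other cells. With a Col9a1 minimum of 10 per 10000, 0 members were lower at P0 than at E16.5 and 2 were higher at 13w than at P0 in Col9a1-high cells. The log2 ratio of Osr1 in Col9a1-high over other cells was -3.64 in E16.5 cells, -3.37 in P0 cells and -1.71 in 13w cells with a Col9a1 minimum of 1 per 10000, and with a minimum of 10 that of Prrx2 at E16.5 was -2.06 and that of Barx2 at 13w -2.47. TMM scaling moved log2 ratios by 0.18 for P0 over E16.5 and 0.16 for 13w over P0 in all cells, and by 0.32, 0.27 and 0.38 for Col9a1-high over other cells at E16.5, P0 and 13w. For the same 2 stage comparisons it moved them by 0.06 and 0.27 in Col9a1-high cells, and by 0.15 and 0.14 in other cells. The reported ratios are on summed counts without that shift. Removing cells with non-skeletal markers left each count of members as reported. Members under 5 CPM, Osr2 and Msx2 above all, are limited by depth, and the single pool per stage limits every comparison of stages.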
